A study of Mus musculus with 4 samples.

Results

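The genes described here are 9 genes of monocytes and macrophages, Csf1r, C1qa, C1qb, C1qc, Cst3, Cd68, Cx3cr1, Ly86 and Chil3. They were listed by name, with earlier results of these data known, and all 9 were found among the 19938 genes that had a probe set with a single gene symbol. Each was measured by 1 probe set. RNA came from bone marrow cells of C57BL/6 mice aged 8 weeks, sorted by FACS for cells that lack lineage antigens and carry c-Kit and Sca-1 (Lin- c-Kit+ Sca-1+), which takes in blood stem cells together with multipotent progenitors. The study compared wild-type (WT) mice with mice labelled Hif1a-/-, in which the gene for the alpha subunit of HIF-1, the oxygen-sensitive part of that transcription factor, was disrupted. Each genotype had 2 Affymetrix whole-transcript arrays, titled as biological replicates 1 and 2 in each, and here called arrays 1 and 2. How Hif1a was deleted, in which cells, and whether animals were pooled are not given in the sources used here.

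Monocytes form in the marrow from progenitors that take up the growth factor CSF1 through its receptor Csf1r, and macrophages depend on the same receptor. Macrophages are a main source of complement C1q, which is built from the products of C1qa, C1qb and C1qc and tags debris and immune complexes for uptake. Cells of this lineage digest what they take up in lysosomes, follow chemokines through receptors such as Cx3cr1, and sense microbial products with Toll-like receptors. A lineage-negative gate is meant to leave out cells that carry mature lineage antigens on their surface, while transcripts of myeloid genes can also be present in progenitors. RNA of sorted cells was measured in bulk, so fewer cells of a type and less RNA per cell cannot be told apart.

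Median log2 signals of the 4 arrays ran from 8.54 to 8.56 over the genes and from 8.19 (WT array 2) to 8.35 over all probe sets. Across genes, the arrays numbered 1 correlated at 0.995 and those numbered 2 at 0.983, while the WT arrays correlated at 0.966 with each other and the arrays labelled Hif1a-/- at 0.962. Arrays of the same number were thus more alike than arrays of the same genotype. Such coefficients only describe the arrays, since genes do not vary independently. What the numbers stand for, beyond replicate, is not given. The targeted gene Hif1a had log2 signals of 10.37 and 10.99 on WT arrays 1 and 2, and 10.58 and 10.64 on arrays 1 and 2 labelled Hif1a-/-. These ranges overlap, and since the deleted part of the gene and the part its probe set covers are not given, this signal does not check the labels.

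Of the 9 genes, 8 were higher on both arrays numbered 2 than on both arrays numbered 1, and none separated the genotypes. Without overlap between the numbers, 20.4% of all genes were higher and 27.2% lower on the arrays numbered 2. At least 0.5 log2 units higher on array 2 in each genotype were 7 of the 9 genes, beside 4.44% of all genes. The genes and the comparison of array numbers were chosen with earlier results of these data known, so such counts are a description. The cutoff of 0.5 also lies just under the smallest difference among these 7 genes (0.55, C1qa in WT). Between the numbers, with genotype held fixed in limma, 4 of the 9 genes passed an adjusted p of 0.05 (Chil3, Cd68, C1qb and Cst3), all of them higher on the arrays numbered 2, where 5.56% of the 19938 genes were called, 3.29% higher and 2.27% lower. The other 5 did not pass, though Csf1r, C1qa, C1qc and Ly86 had an unadjusted p under 0.05, as had 18.0% of all genes. The median difference of the 9 genes between the numbers was 1.00 log2 units, beside −0.02 over all genes. That fit has 1 residual degree of freedom per gene and leans on the variance shared across genes. Fits with 1 array left out also had no genotype term, since 3 arrays leave no residual degree of freedom with it, so 2 choices changed at once. The median difference of the 9 was 0.82 without WT array 1 and 0.98 without WT array 2. Dropping the genotype term alone also gave 4 that passed, with Ly86 in place of C1qb. Of all called genes 59.2% were higher on the arrays numbered 2 as deposited, 76.8% with each array centred on its median over all probe sets, and 37.6% without WT array 2.

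**Figure D1:**
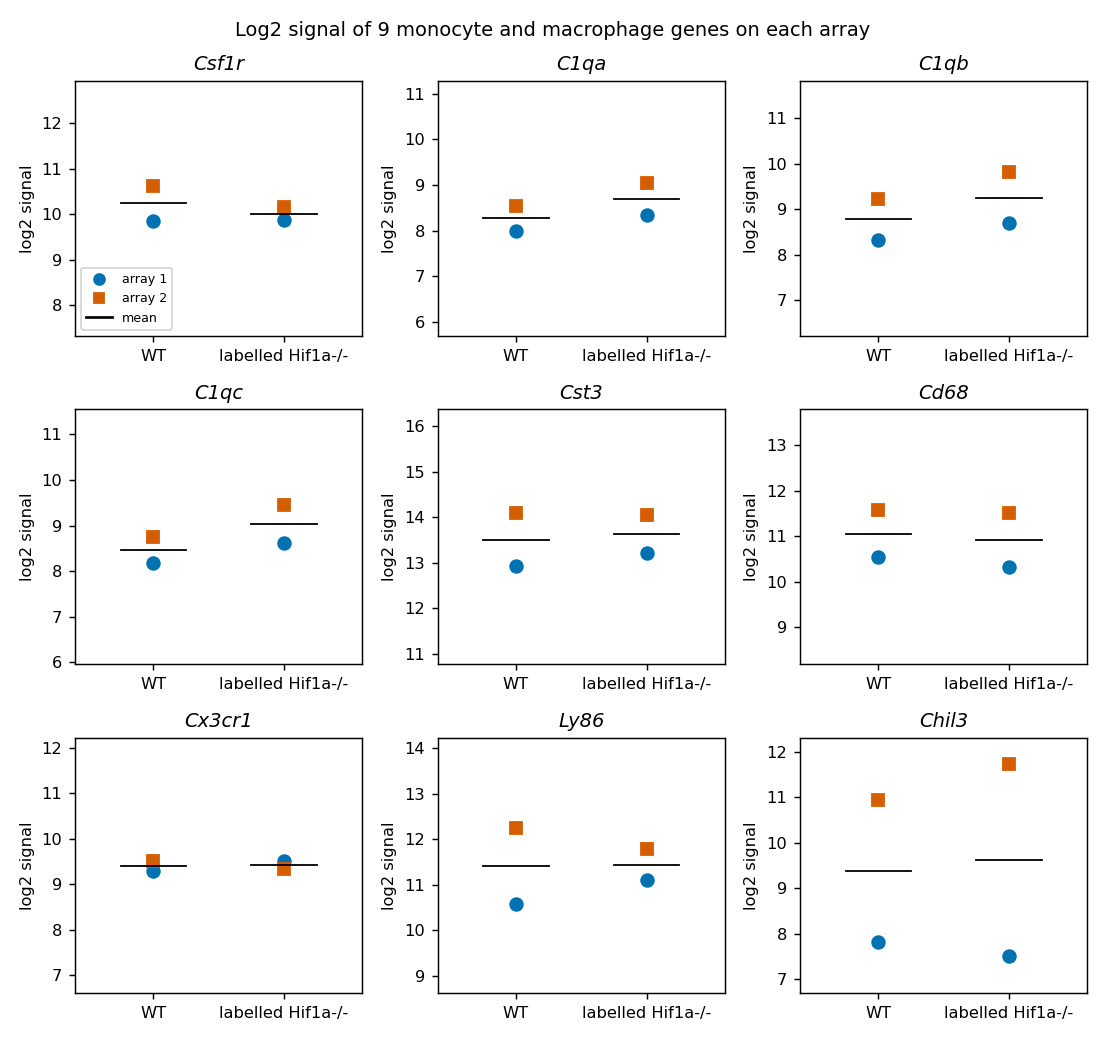
Log2 signal (vertical axis, each panel spanning the same number of log2 units) of the 9 genes on each array, by genotype (horizontal axis). Circles are arrays numbered 1, squares arrays numbered 2, and bars the mean of the 2 arrays of a genotype. The squares lie above both circles in every panel but that of Cx3cr1, and the genotypes overlap in every panel.

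Between the genotypes, limma called 0 of the 9 genes and 0.0% of all genes at an adjusted p under 0.05. At an unadjusted p under 0.05 there were 0 of the 9 genes and 145 of 19938 (0.727%), and every alternative fit that was run also called 0 genes after adjustment. With the array number as a term in limma, 478 of 19938 genes had an unadjusted p under 0.05, among them C1qa, C1qb and C1qc. That is the same model as the fit between the numbers. In the means of the arrays labelled Hif1a-/-, 7 of the 9 genes were higher and 2 lower, with a median of 0.12 log2 units beside 0.00 over all genes. Of these 7, Cx3cr1 and Ly86 turned to −0.06 and −0.05 when arrays were centred on their medians over all probe sets. No gene of the 9 had both arrays of a genotype above both of the other, whereas 16.1% of all genes were higher and 8.33% lower without overlap in the arrays labelled Hif1a-/-. Within the numbers, 5 of the 9 genes differed between the genotypes in opposite directions, 3 were higher in both and 1 was lower in both. Of all genes 27.3% were higher in both, and the share in opposite directions was not counted, so the 5 are a description. The median turned to −0.46 without WT array 1 and to −0.29 without array 2 labelled Hif1a-/-. Genotype fits with 1 array left out had no term for the array number and set 1 array against both arrays of the other genotype. The difference between the numbers is therefore mixed into them.

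The chains of C1q were alike in pattern, and were the 3 of the 9 genes with a higher signal in the arrays labelled Hif1a-/- within both numbers, as had 27.3% of all genes. They lie next to each other on chromosome 4 in the RefSeq gene table, in the order C1qb, C1qc, C1qa. The promoters of C1qb and C1qc are shown because these neighbours had similar profiles. Both windows run from 250 bases before to 50 bases after the RefSeq start on the minus strand of GRCm38.p6, at chr4:136886151-136886450 for C1qb and chr4:136892865-136893164 for C1qc. Capitals mark the letters of GAGGAA on either strand, a core read by the myeloid factor PU.1.
C1qb: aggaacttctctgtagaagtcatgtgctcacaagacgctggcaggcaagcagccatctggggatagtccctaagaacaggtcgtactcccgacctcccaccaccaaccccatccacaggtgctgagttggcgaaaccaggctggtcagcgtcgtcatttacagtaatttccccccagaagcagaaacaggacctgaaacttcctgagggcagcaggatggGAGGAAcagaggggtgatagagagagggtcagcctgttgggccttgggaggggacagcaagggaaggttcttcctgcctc
C1qc: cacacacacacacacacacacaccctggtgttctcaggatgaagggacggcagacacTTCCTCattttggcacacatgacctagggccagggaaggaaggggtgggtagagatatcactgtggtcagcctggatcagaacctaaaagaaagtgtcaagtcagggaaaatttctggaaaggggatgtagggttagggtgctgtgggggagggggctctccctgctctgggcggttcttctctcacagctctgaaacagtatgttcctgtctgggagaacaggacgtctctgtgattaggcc

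C1qa, the A chain, had log2 signals of 8.00 and 8.55 on WT arrays 1 and 2, and of 8.35 and 9.05 on arrays 1 and 2 labelled Hif1a-/-. C1qb, the B chain, had 8.32 and 9.23 in WT against 8.70 and 9.81 in Hif1a-/- arrays. For C1qc, the C chain, the values were 8.17 and 8.75 in WT against 8.62 and 9.45 in Hif1a-/- arrays. In all 3 genes WT array 1 was lowest and array 2 labelled Hif1a-/- highest, with the other arrays between, so that the genotypes overlapped and the numbers did not.

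C1qb was 1.01 log2 units higher on the arrays numbered 2 (SE 0.14, 2.01-fold, adjusted p = 0.0209 in limma). Its call was lost with no genotype term (adjusted p = 0.0647). It was also not called in the fits without that term that left out WT array 1 (0.82, adjusted p = 0.337) or array 1 labelled Hif1a-/- (1.20, adjusted p = 0.0993). C1qa and C1qc were 0.63 (SE 0.13) and 0.71 (SE 0.14) log2 units higher, with adjusted p-values of 0.0685 and 0.0557, and passed in 4 of 11 alternatives each. Quantile normalization was one of these, with adjusted p-values of 0.0214 and 0.0136.

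Between the genotypes the C1q genes gave the highest mean differences of the 9, none of which passed. C1qa was 0.42 log2 units higher in the Hif1a-/- arrays (mean 8.70 ± 0.50 against 8.27 ± 0.39 in WT, SD, n = 2 each, 95% interval −0.50 to 1.35), with 0.35 between the arrays numbered 1 and 0.50 between those numbered 2. C1qb was 0.48 higher (9.25 ± 0.78 against 8.78 ± 0.64, interval −0.96 to 1.92), with 0.38 and 0.58. C1qc was 0.58 higher (9.04 ± 0.58 against 8.46 ± 0.42, interval −0.46 to 1.62), with 0.46 and 0.70. The adjusted p was 0.9998 for each, and the unadjusted p was 0.272, 0.409 and 0.198. With the array number as a term in limma the unadjusted p was 0.0225, 0.0156 and 0.00805, and the adjusted p 0.980 for each. The intervals there were 0.09 to 0.76, 0.13 to 0.82 and 0.23 to 0.93, not adjusted for the number of genes tested. At least 0.3 log2 units higher within both numbers were 162 genes, or 0.813% of all, among them these 3. The cutoff of 0.3 lies just under the smallest of their differences (0.35), so this share is a description. Without array 2 labelled Hif1a-/- C1qb turned to −0.075, and C1qa and C1qc were 0.074 and 0.16. That fit sets array 1 labelled Hif1a-/- against WT arrays 1 and 2, so the difference between the numbers is mixed in. Neighbouring genes of a complex are not independent of each other.

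**Figure D2:**
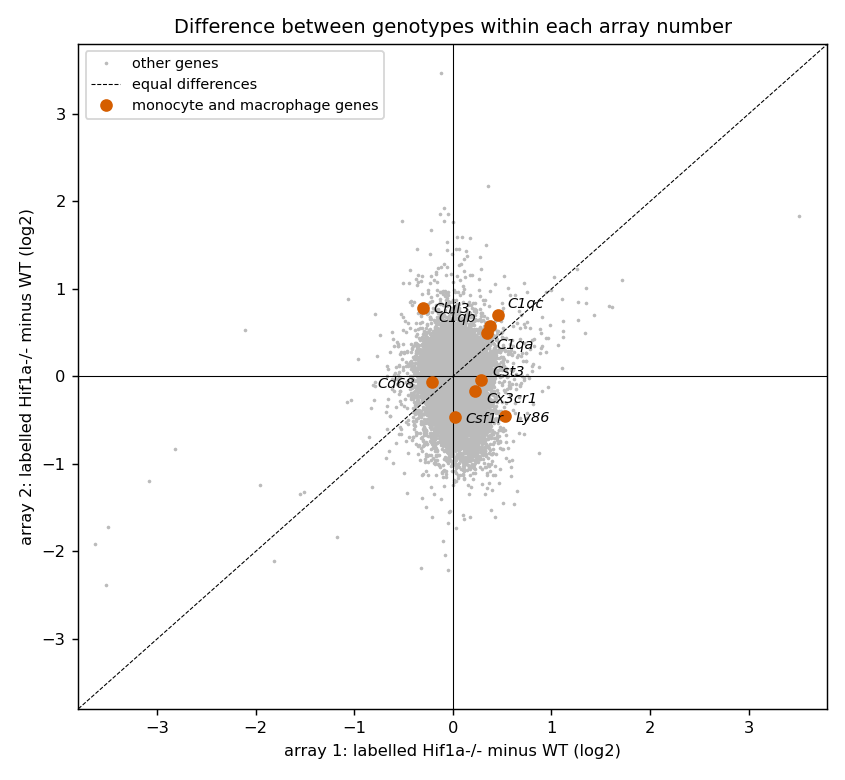
Difference between arrays labelled Hif1a-/- and WT arrays in log2 units, among the arrays numbered 1 (horizontal axis) and among those numbered 2 (vertical axis). Orange points are the 9 genes, grey points all other genes, and the dashed line marks equal differences. C1qa, C1qb and C1qc lie above 0 on both axes, Ly86 and Chil3 on opposite sides of 0.

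Of the other complement genes, 18 of 22 listed were measured, and 3 passed as higher and 2 as lower on the arrays numbered 2, with a list median of 0.01 log2 units. Cfp, which encodes properdin, a stabiliser of the alternative pathway, rose by 1.26 (SE 0.13, adjusted p = 0.0110). C5ar1, the receptor for the chemoattractant C5a, rose by 1.78 (SE 0.23), with log2 signals of 7.13 and 8.49 in WT against 7.39 and 9.60 in Hif1a-/- arrays. C1ra, which encodes a protease that joins C1q in the C1 complex, fell by 0.75 (SE 0.14, adjusted p = 0.0497). Cd93, a surface protein once described as a C1q receptor and present on early progenitors, fell by 1.37 (SE 0.18). The genotypes gave no call in this list, where 15 genes were higher and 3 lower in the mean, and C4b was 0.25 higher (SE 0.11, unadjusted p = 0.0769).

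Csf1r, the receptor for CSF1 and IL-34, had log2 signals of 9.85 and 10.63 on WT arrays 1 and 2, and of 9.87 and 10.16 on arrays 1 and 2 labelled Hif1a-/-. The arrays numbered 1 were nearly equal, and WT array 2 was highest. Between the numbers Csf1r was 0.53 log2 units higher on the arrays numbered 2 (SE 0.17, adjusted p = 0.176), and it passed in 1 of 11 alternatives, without array 2 labelled Hif1a-/- (0.77, adjusted p = 0.000555, against 0.162 with only the genotype term dropped). Between the genotypes it was −0.22 (mean 10.02 ± 0.20 in arrays labelled Hif1a-/- against 10.24 ± 0.55 in WT, SD, n = 2 each, interval −1.09 to 0.64), made up of 0.02 between the arrays numbered 1 and −0.47 between those numbered 2. With the array number as a term the interval was −0.65 to 0.20. The sign turned without WT array 2 (0.16).

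Its ligands gave no call. Csf1 was 0.25 log2 units higher on the arrays numbered 2 (SE 0.16, adjusted p = 0.538), and Il34 differed by −0.07 (SE 0.13). Ligands and partners of the 9 genes were named for their role and after their values had been seen. In the list of CSF1 receptor signalling and related receptors all 20 genes were measured, and 4 passed as higher between the numbers and 0 as lower, with a median of 0.04. Csf2rb2 and Csf2rb, beta chains of receptors for IL-3 and GM-CSF, rose by 1.51 and 1.22 (adjusted p = 0.00798 and 0.0117). Csf3r, the receptor for the neutrophil growth factor G-CSF, differed by −0.73 (SE 0.17) and did not pass. Spi1, which encodes PU.1, rose by 0.70 (SE 0.13, adjusted p = 0.0491), with 11.74 and 12.39 in WT against 11.53 and 12.27 in Hif1a-/- arrays.

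Cd68, a glycoprotein of late endosomes and lysosomes, had log2 signals of 10.54 and 11.57 on WT arrays 1 and 2, and of 10.33 and 11.50 on arrays 1 and 2 labelled Hif1a-/-. Cst3, which encodes cystatin C, a secreted inhibitor of cysteine cathepsins, had 12.92 and 14.09 in WT against 13.21 and 14.05 in Hif1a-/- arrays. In both genes the arrays numbered 2 lay close together (−0.07 and −0.04 between the genotypes) and stood above both arrays numbered 1. The signal of Cst3 was above that of nearly all other genes (percentile 99.9), a statement about its probe set that does not rank transcripts.

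Cd68 rose by 1.10 log2 units on the arrays numbered 2 (SE 0.13, 2.15-fold, adjusted p = 0.0164), and the call ended without array 1 labelled Hif1a-/- (0.99, adjusted p = 0.0733, against 0.00886 with only the genotype term dropped). Cst3 rose by 1.00 (SE 0.15, adjusted p = 0.0263), and the call ended without WT array 1 (0.85, adjusted p = 0.135, against 0.0149 with only the genotype term dropped) and with arrays centred on their medians over all probe sets (adjusted p = 0.0796). Between the genotypes Cd68 differed by −0.14 (10.92 ± 0.83 in arrays labelled Hif1a-/- against 11.06 ± 0.73 in WT, SD, n = 2 each), and its sign turned without array 1 labelled Hif1a-/- (0.45) and without WT array 2 (0.37). Within the numbers Cd68 was lower in both (−0.215 and −0.0658), and the difference between the numbers is mixed into the fits with an array left out. Cst3 differed by 0.12 (13.63 ± 0.59 against 13.51 ± 0.82) and turned without WT array 1 (−0.46) and without array 2 labelled Hif1a-/- (−0.29). In the fit without the array number the intervals, −1.71 to 1.42 and −1.31 to 1.56, each hold differences of over 1 log2 unit either way. With the array number as a term they were −0.48 to 0.20 and −0.25 to 0.50.

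Of 26 measured genes of the lysosome, out of 29 listed, 12 passed as higher between the numbers and 0 as lower, with a median of 0.68 log2 units. The cysteine proteases cathepsin S (Ctss) and cathepsin H (Ctsh) rose by 1.89 (SE 0.16) and 1.81 (SE 0.15), and cathepsin B (Ctsb) by 0.94 (SE 0.15, adjusted p = 0.0310). Npc1, a cholesterol transporter of the lysosomal membrane, and Gaa, the acid glucosidase, differed by −0.46 and −0.52 and did not pass. Lamp1 and Lamp2, which belong to the same protein family as Cd68, were 0.41 and 0.34 higher (adjusted p = 0.219 and 0.307). Among 10 measured cystatins other than Cst3, 1 passed, Stfa2, which rose by 1.27 (SE 0.18, adjusted p = 0.0243), and the median was 0.12. Between the genotypes Gaa differed by −0.67 (SE 0.30, unadjusted p = 0.0881) and no gene of either list passed.

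Ly86, which encodes MD-1, had log2 signals of 10.57 and 12.23 on WT arrays 1 and 2, and of 11.10 and 11.78 on arrays 1 and 2 labelled Hif1a-/-. WT array 1 was lowest and WT array 2 highest, so the arrays labelled Hif1a-/- lay between the WT arrays. On the arrays numbered 2 Ly86 was 1.17 log2 units higher (SE 0.25, 2.25-fold, adjusted p = 0.0709), made up of 1.66 in WT against 0.68 in Hif1a-/- arrays. It passed in 8 of 11 alternatives, among them each of the 3 that left out an array other than WT array 1. The genotypes differed by 0.04 in the mean (11.44 ± 0.48 in arrays labelled Hif1a-/- against 11.40 ± 1.18 in WT, SD, n = 2 each, interval −1.76 to 1.83), from 0.53 between the arrays numbered 1 and −0.46 between those numbered 2. With the array number as a term the interval was −0.60 to 0.67. The difference turned to −0.80 without WT array 1 and to −0.30 without array 2 labelled Hif1a-/-.

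MD-1 pairs with Cd180, a Toll-like receptor relative, as its counterpart MD-2, the product of Ly96, pairs with Tlr4 to bind endotoxin. Cd180 was 0.53 log2 units higher on the arrays numbered 2 (SE 0.13, adjusted p = 0.101) and Tlr4 0.47 higher (SE 0.15, adjusted p = 0.178). The log2 signals of Ly96 were 8.91 and 8.89 in WT against 9.42 and 9.25 in Hif1a-/- arrays, a difference of −0.09 between the numbers and of 0.43 between the genotypes (SE 0.12, unadjusted p = 0.0236). The genotypes did not overlap for Ly96, although the adjusted p over all genes was 0.9998. Of 15 measured genes of this receptor list, 5 passed as higher between the numbers and 1 as lower. Tlr13, a receptor for bacterial ribosomal RNA in mice, rose by 3.28 (SE 0.18), and Cd14, the endotoxin co-receptor, by 0.81 (SE 0.13). Tlr7, which senses single-stranded RNA, fell by 1.14 (SE 0.14, adjusted p = 0.0170).

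Cx3cr1, the receptor for fractalkine, was the gene of the 9 whose values overlapped between the numbers. Its log2 signals were 9.30 and 9.50 on WT arrays 1 and 2, and 9.52 and 9.34 on arrays 1 and 2 labelled Hif1a-/-. Neither numbers nor genotypes were apart, and the 4 values spanned 0.23 log2 units. The difference between the numbers was 0.01 (SE 0.15, interval −0.38 to 0.40, adjusted p = 0.990), and that between the genotypes 0.03 (SE 0.14, interval −0.37 to 0.43, 9.43 ± 0.13 in arrays labelled Hif1a-/- against 9.40 ± 0.15 in WT, SD, n = 2 each). Differences inside these intervals cannot be told from no change here. The ligand gene Cx3cl1 differed by −0.08 (SE 0.15) between the numbers.

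Of 8 measured genes in a list of chemoattractant receptors of monocytes, which also holds Cx3cl1, 3 passed as higher between the numbers and 0 as lower, with a median of 0.20 log2 units. Ccr2, which guides classical monocytes out of the marrow, rose by 2.55 log2 units (SE 0.19, adjusted p = 0.00558), from 8.54 and 8.92 on the arrays numbered 1 (WT and labelled Hif1a-/-) to 11.42 and 11.13 on those numbered 2. Ccr1 rose by 2.01 (SE 0.14). Cxcr4, which holds progenitors in the marrow, differed by −0.50 (adjusted p = 0.127). The promoter of Cx3cr1, chr9:120068247-120068546 on the minus strand of GRCm38.p6, is shown as that of the gene with the smallest difference of the 9. It holds none of the motifs searched, so it has no capitals.
Cx3cr1: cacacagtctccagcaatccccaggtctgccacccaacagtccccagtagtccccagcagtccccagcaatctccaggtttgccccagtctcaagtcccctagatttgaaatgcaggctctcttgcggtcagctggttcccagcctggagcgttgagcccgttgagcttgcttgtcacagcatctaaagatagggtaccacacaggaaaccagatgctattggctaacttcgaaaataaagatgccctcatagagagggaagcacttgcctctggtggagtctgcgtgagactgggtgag

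Chil3, which encodes the secreted chitinase-like protein Ym1 of mouse macrophages and neutrophils, spanned the widest range. Its log2 signals were 7.82 and 10.94 on WT arrays 1 and 2, and 7.51 and 11.72 on arrays 1 and 2 labelled Hif1a-/-. Both arrays numbered 2 lay over 3 log2 units above both arrays numbered 1. It rose by 3.66 log2 units on the arrays numbered 2 (SE 0.27, 12.7-fold, adjusted p = 0.00536), with 8.67-fold in WT against 18.5-fold in those labelled Hif1a-/-. It ranked at place 7 of 19938 genes for this difference and passed in all 11 alternatives, with 3.27 to 4.06. Between the genotypes the difference was 0.24 (9.62 ± 2.98 in arrays labelled Hif1a-/- against 9.38 ± 2.20 in WT, SD, n = 2 each, interval −4.92 to 5.40), from −0.31 between the arrays numbered 1 and 0.79 between those numbered 2. With the array number as a term the interval was −0.45 to 0.93. The difference turned to −1.32 without WT array 1 and to −1.87 without array 2 labelled Hif1a-/-.

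**Figure D3:**
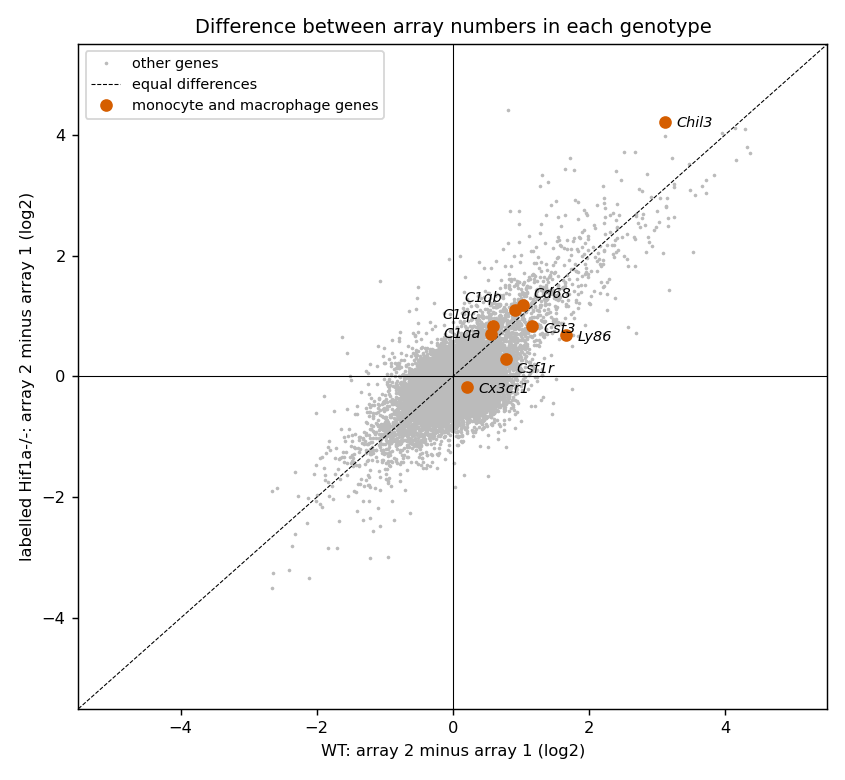
Difference between array 2 and array 1 in log2 units, in WT (horizontal axis) and in the arrays labelled Hif1a-/- (vertical axis). Orange points are the 9 genes, grey points all other genes, and the dashed line marks equal differences. Chil3 lies at 3.12 and 4.21, Cx3cr1 near 0, and the other 7 genes above 0 on both axes.

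Chil3 lies between Chia1 and Chil4 in the RefSeq gene table, both of the same chitinase family. Chil4, a close relative of Chil3 in sequence, had log2 signals of 6.71 and 7.02 in WT against 6.74 and 7.57 in Hif1a-/- arrays, and was 0.57 higher between the numbers (SE 0.17, adjusted p = 0.162). Whether the probe sets of Chil3 and Chil4 share signal was not tested. Chia1, an acidic chitinase, differed by −0.0034 (SE 0.14). Chil1, a relative stored in neutrophil granules, was 1.44 higher (SE 0.27, adjusted p = 0.0504). Of 11 measured genes of this family and of alternative macrophage activation, 3 passed as higher between the numbers and 0 as lower, among them the mannose receptor gene Mrc1 (1.52, SE 0.13) and the lectin gene Mgl2 (1.23, SE 0.13). The promoter of Chil3, chr3:106167515-106167814 on the minus strand of GRCm38.p6, is shown as that of the gene with the greatest difference of the 9, with the letters of TATAAA in capitals.
Chil3: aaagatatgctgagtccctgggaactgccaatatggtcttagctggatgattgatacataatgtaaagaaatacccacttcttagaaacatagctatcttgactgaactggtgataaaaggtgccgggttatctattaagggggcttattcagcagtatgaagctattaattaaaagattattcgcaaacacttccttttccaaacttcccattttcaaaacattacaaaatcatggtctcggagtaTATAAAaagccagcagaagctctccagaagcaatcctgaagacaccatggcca

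Promoters were found in the RefSeq table for 7 of the 9 genes (C1qb, C1qc, Cst3, Cd68, Cx3cr1, Ly86 and Chil3). GAGGAA was found on either strand in 4 of these 7 (C1qb, C1qc, Cst3 and Cd68), beside 28.3% of 32851 promoters of the same length. In C1qb it began 30 bases before the start, in C1qc 193 bases before, and in Cst3 230 bases before. Cd68 held it at 225 bases before and at 30 bases after the start, where the first base of the gene is 1. The letters TTGCNNAA, read by factors of the C/EBP family, were found in Cd68 (10.8% of all promoters), and TATAAA in Chil3 (13.6%). ACGTG, the core of the element that HIF-1 binds, was in 0 of the 7 promoters, beside 19.6% of all. The motifs found did not overlap each other. A match describes the letters only, and no match says only that these letters are not in this window.

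Other monocyte and macrophage genes were mostly higher on the arrays numbered 2. The gene lists share some genes, such as Itgax, Mrc1 and Ctss, so their counts are not independent. Of 28 measured monocyte genes 16 passed as higher and 0 as lower, with a median of 0.98 log2 units, and of 24 measured macrophage genes 8 passed as higher and 0 as lower, with a median of 0.55. The Fc receptor gene Fcgr3 rose by 2.04 (SE 0.13) and the chemokine gene Ccl6 by 2.69 (SE 0.17). Adgre1, which encodes the macrophage antigen F4/80, rose by 1.91 (SE 0.20), from 7.23 and 7.81 on the arrays numbered 1 to 9.50 and 9.37 on those numbered 2. Itgax, shared by macrophages and dendritic cells, rose by 2.15 (SE 0.17). Not all macrophage markers did so. The scavenger receptor gene Cd163 differed by 0.08 (SE 0.18), the microglial and macrophage receptor gene Trem2 by 0.14, and Marco, a scavenger receptor of tissue macrophages, by −0.10. Between the genotypes 0 genes of either list passed, and the medians were 0.05 for monocyte and 0.23 for macrophage genes, with Ccl9 at −0.57 (SE 0.22, unadjusted p = 0.0611).

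**Figure D4:**
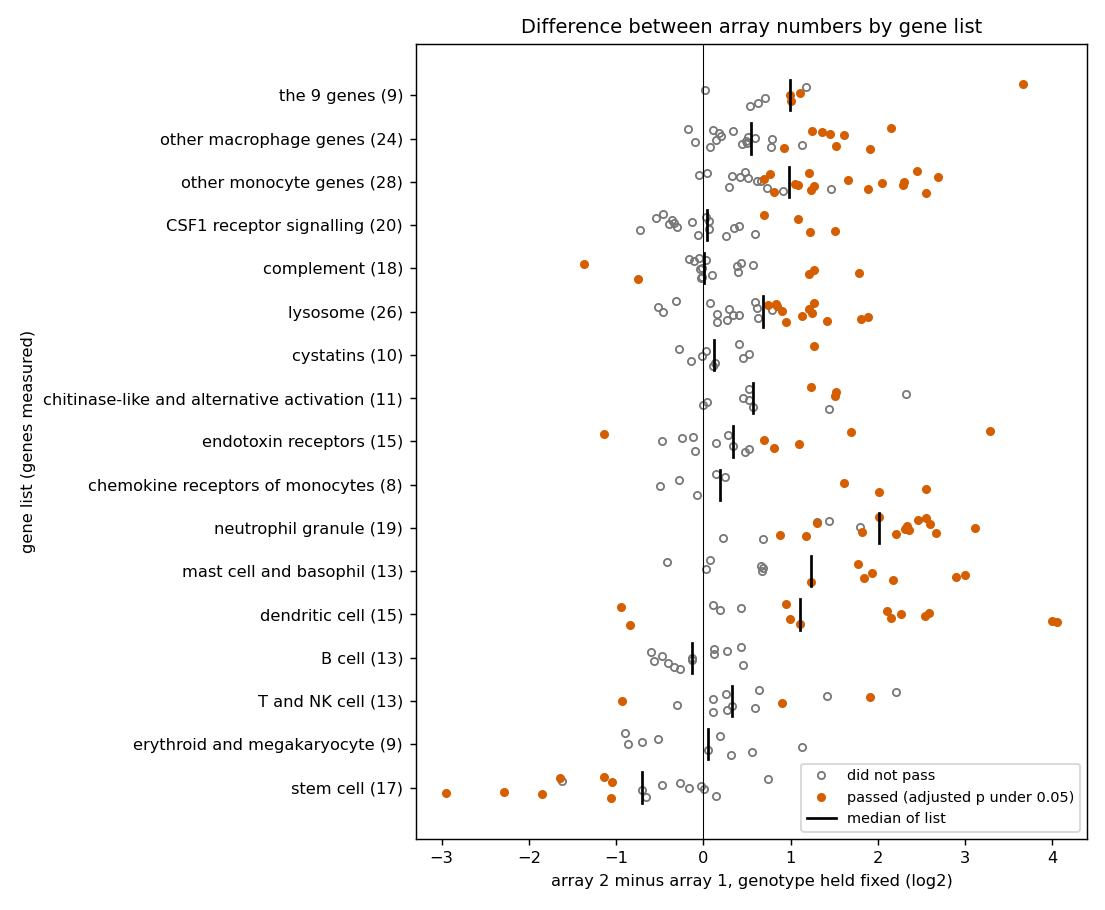
Difference between arrays 2 and 1 with genotype held fixed, in log2 units (horizontal axis), for each measured gene of each list (rows, with the number of genes measured). Filled points passed an adjusted p of 0.05 in limma, open points did not, and black bars are list medians. The median is 1.00 for the 9 genes, 2.02 for neutrophil granule genes and −0.70 for stem cell genes.

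Markers of neutrophils, of mast cells and basophils, and of dendritic cells mostly moved with the 9 genes between the numbers. Those of stem cells mostly moved the other way. The part of these cell types in the results was not tested. Of 19 neutrophil granule genes, all measured, 14 passed as higher and 0 as lower. Their mean log2 signal was 10.03 and 9.81 on the arrays numbered 1 (WT and labelled Hif1a-/-) and 11.44 and 12.10 on those numbered 2. Of 13 measured mast cell and basophil genes 7 passed as higher, with means of 8.93 and 9.10 against 10.31 and 10.28. Of 15 dendritic cell genes 10 passed as higher and 2 as lower, with means of 9.67 and 9.97 against 11.14 and 11.39, and Xcr1 and Clec9a of cross-presenting dendritic cells rose by 4.05 (SE 0.17) and 3.99 (SE 0.13). Of 17 measured stem cell genes 7 passed as lower and 0 as higher, with a median of −0.70. Hlf and Meis1, transcription factor genes of stem cells, fell by 2.95 (SE 0.19) and 2.28 (SE 0.14), and Kit, whose product is part of the sorting gate, fell by 1.06 (SE 0.13).

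Of 13 measured B cell genes 0 passed between the numbers, with a median of −0.12 log2 units and 5 at an unadjusted p under 0.05 in limma. Of 13 measured T and NK cell genes 2 passed as higher and 1 as lower, with 7 at an unadjusted p under 0.05, and of 9 measured erythroid and megakaryocyte genes 0 passed, with 5 at an unadjusted p under 0.05. Beside the counts of every list, 5.56% of all genes were called between the numbers in limma, 3.29% higher and 2.27% lower. An unadjusted p under 0.05 was found for 18.0% of all genes. A log2 array signal has no true zero, so no marker can be said to be absent.

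The genes most like the 9 in pattern were found by the Euclidean distance between log2 signals centred on their mean over the 4 arrays. Closest to the median profile of the 9 were Pmaip1 (distance 0.07 log2 units), Ank1 (0.09), Trgv1 (0.09), Cd8a (0.11) and Sh3pxd2b (0.11). Nearest to C1qa were Pik3ap1 (0.05) and Trim30a (0.07), and to C1qc the guanylate-binding protein genes Gbp9 (0.11) and Gbp4 (0.14). C1qb had the natural killer receptor genes Klra8 (0.09) and Klra6 (0.11) nearest. For Cst3 these were Pmaip1 (0.05) and Ank1 (0.08), for Cd68 Rubcnl (0.07) and Trib1 (0.08), and for Ly86 Sdf2l1 (0.06) and Cldn13 (0.13). Chil3 had no neighbour as close, with Shtn1 at 0.34 and Septin3 at 0.45. Among the 9 themselves, C1qa and C1qc were closest (0.18), followed by C1qb and C1qc (0.32) and by Cst3 and Cd68 (0.37). Next were Cst3 and Ly86 (0.38) and then C1qa and C1qb (0.39). Chil3 stood at least 2.63 from each of the others. The profiles hold only 4 arrays and were searched among 19938 genes, so these distances are a description. The distance also grows with the range of a profile, and Chil3 had the widest range of the 9 (4.21 log2 units).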

How the data were processed

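The authors deposited log2 signals per probe set. Per the submitters' processing notes, the software was Affymetrix Expression Console, version 1.1, and the method RMA. The log2 scale was read from the values, which lie between 3.08 and 14.88. RMA normalizes arrays to each other, so a change shared by all genes would not show. No genome build was used for the signals. Of 35556 probe sets 21789 had 1 gene symbol in the platform annotation, 1621 several and 12146 were not listed there. For genes with several probe sets that of the highest mean was used, which left 19938 genes. Columns of other samples numbered 0.

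The tests used limma (version 3.58.1, R 4.3.3), two-sided, for genotypes without covariates and for array numbers with genotype as a covariate. Benjamini-Hochberg adjustment ran over all genes, and an adjusted p under 0.05 counted as a call. The number of arrays limits the precision. The titles call the replicates biological, but nothing in the labels says whether they came from separate animals. For genotypes, without covariates, p-values measure the spread between the arrays of a genotype. Between numbers, the residual is how far the number difference departs between the genotypes, since each genotype and number has 1 array. Those p-values therefore do not measure the spread between replicates. The 9 genes, the lists and the comparison of array numbers were chosen with earlier results of these data known. Named are the 9 genes, in each list up to 2 genes per direction with the smallest p between numbers and 1 between genotypes, of which a part is printed, and the genes nearest in pattern. Further genes were named for their role after their values were seen. Alternatives were other normalizations, a filter on dim genes, averaged probe sets, eBayes with trend, other covariates and each array left out.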

Additional observations from a re-analysis of the deposited data

Results flagged for a closer look

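Cx3cr1 differed between the array numbers in opposite directions in the genotypes. Array 2 was 0.21 log2 units above array 1 in WT and differed by −0.18 in the arrays labelled Hif1a-/-. With 1 array per genotype and number this difference could not be tested.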

How the results depend on the processing

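Of the 19938 genes, 1108 were called between the numbers, 1777 under quantile normalization, 440 with arrays centred on their medians over all probe sets and 319 to 4661 with 1 array left out and no genotype term. Of the 9 genes 4 were called, 7 under quantile normalization, cyclic loess or eBayes with trend and robust, and 2 to 7 with 1 array left out, and their median stayed between 0.77 and 0.99 with 1 array left out. Cx3cr1 ranged from −0.10 to 0.13 there, below 0 without WT array 1 (−0.10) and without WT array 2 (−0.07). The cause of these changes was not tested. Between the genotypes no fit called a gene. With the array number as a replicate block 0 genes passed, with 478 at an unadjusted p under 0.05 against 145 without it. In that fit C1qa, C1qb and C1qc had unadjusted p-values of 0.0225, 0.0156 and 0.00805 and an adjusted p of 0.980 each. Deviations of same-numbered arrays from their genotype means correlated at 0.669 across genes, but the labels do not say that a number marks a shared day or litter. With arrays centred on their medians Cx3cr1 and Ly86 turned to −0.056 and −0.050. With 1 array left out the median of the 9 genes between the genotypes ran from −0.46 to 0.71, C1qb from −0.075 to 1.03, Cst3 from −0.46 to 0.71, Cd68 from −0.73 to 0.45, Csf1r from −0.61 to 0.16, Cx3cr1 from −0.073 to 0.14, Ly86 from −0.80 to 0.87 and Chil3 from −1.87 to 2.34. C1qa (0.074 to 0.77) and C1qc (0.16 to 0.99) kept their sign. A group left with 1 array is assumed to vary like the others. These genotype fits have no term for the array number, so the difference between the numbers is mixed into their values.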
